A study of Mus musculus with 6 samples.

Results

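The neutrophil granule genes were a list of 10 genes chosen by name, S100a8, S100a9, Ltf, Ngp, Camp, Retnlg, Mpo, Elane, Csf3r and Mmp9, out of 34745 genes counted in every library. The choice was made with earlier results of these data known. All 10 were in the files, and all 10 passed the filter on low counts that left 14417 genes for testing. They were read in RNA-seq libraries of primary hepatocytes from male mice aged 12 weeks with CCl4-induced hepatic fibrosis. All mice carried Foxa2 alleles flanked by loxP sites (FOXA2flox/flox, shortened to FOXA2f/f). The FOXA2f/f+CCl4 group received the virus AAV8-TBG-Control and the FOXA2H-KO+CCl4 group AAV8-TBG-Cre, in both cases through the tail vein and 2 weeks ahead of the first CCl4 dose. Both groups then received CCl4, a solvent that hepatocytes turn into a toxic radical, at 0.25 ml/kg, with 2 injections in each of 4 weeks, and hepatocytes were taken on the third day from the final dose. The TBG promoter is active in hepatocytes, so Cre was directed to hepatocytes and not to blood cells. The cells came from collagenase-perfused livers by low-speed centrifugation, which enriches hepatocytes by their size without selecting on a marker. Each group had 3 libraries, numbered 1, 2 and 4 in the labels, and per-library values below are given in that order. The labels do not say that the libraries of a group came from separate mice, so p-values measure the spread between these libraries, which may be technical.

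Neutrophils pack their granules in an order set by their maturation in the bone marrow. Promyelocytes fill the primary (azurophil) granules with myeloperoxidase and serine proteases, myelocytes fill the secondary (specific) granules with lactoferrin and cathelicidin, and later stages fill the tertiary granules with gelatinase. The messenger RNAs of the primary and secondary granule proteins are largely switched off by the time a neutrophil enters the blood, whereas mature neutrophils keep making other transcripts, among them those of the G-CSF receptor. Neutrophils enter the liver after toxic injury.

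The genes lie on 7 chromosomes (GRCm38, GENCODE M21 annotation), and all are protein-coding. Mpo (ENSMUSG00000009350) lies at chr11:87793581-87804413 on the plus strand and Elane (ENSMUSG00000020125) at chr10:79886247-79888215 on the plus strand, 11.8 kb from the start of Prtn3, another primary granule protease. Camp (ENSMUSG00000038357) at chr9:109847379-109849617 on the minus strand, Ngp (ENSMUSG00000032484) at chr9:110419747-110423012 on the plus strand and Ltf (ENSMUSG00000032496) at chr9:111019271-111042767 on the plus strand share a stretch of chromosome 9, with 8 protein-coding starts between Camp and Ngp and 20 between Ngp and Ltf. S100a8 (ENSMUSG00000056054) at chr3:90668978-90670035 on the plus strand and S100a9 (ENSMUSG00000056071) at chr3:90692632-90695721 on the minus strand are neighbours, with 26743 bases between their starts and 0 protein-coding starts in between. Mmp9 (ENSMUSG00000017737) lies at chr2:164940780-164955850, Retnlg (ENSMUSG00000022651) at chr16:48872621-48874496 and Csf3r (ENSMUSG00000028859) at chr4:126024550-126044440, all 3 on the plus strand. Of the exonic bases of Mpo, 15% are shared with Gm11505 on the opposite strand. The sources used here do not state whether counting used strand, so reads there could belong to either gene. The other 9 genes share no exonic base with another annotated gene.

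The promoters of 4 of these genes are shown because a primary granule gene (Elane), a pair of secondary granule genes (Ltf and Ngp) and a calprotectin gene (S100a9) were all highest in FOXA2f/f replicates 1 and 4, as described below. The sequences are from RefSeq (GRCm38.p6), 5′ to 3′ on the strand of the gene, and end at the last base before the annotated start. Elane is chr10:79886062-79886246 on the plus strand, Ltf chr9:111019042-111019270 on the plus strand, Ngp chr9:110419558-110419746 on the plus strand and S100a9 chr3:90695722-90695971 on the minus strand. Capitals mark matches to letters read by granulocyte transcription factors, TTGCNNAA for C/EBP, GAGGAA for PU.1 and TGTGGT for RUNX, each on either strand.
Elane promoter: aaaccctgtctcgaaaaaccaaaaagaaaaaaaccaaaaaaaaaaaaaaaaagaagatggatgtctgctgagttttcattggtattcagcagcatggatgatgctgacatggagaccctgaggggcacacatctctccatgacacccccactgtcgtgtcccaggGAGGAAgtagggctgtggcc
Ltf promoter: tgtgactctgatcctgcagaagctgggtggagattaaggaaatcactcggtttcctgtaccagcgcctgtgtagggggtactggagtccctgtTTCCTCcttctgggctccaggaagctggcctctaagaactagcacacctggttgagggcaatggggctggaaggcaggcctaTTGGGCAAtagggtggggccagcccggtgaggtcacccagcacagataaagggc
Ngp promoter: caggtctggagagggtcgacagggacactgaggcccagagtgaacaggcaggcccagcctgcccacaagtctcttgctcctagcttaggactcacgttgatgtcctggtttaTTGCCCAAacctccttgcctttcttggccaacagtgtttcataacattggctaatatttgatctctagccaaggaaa
S100a9 promoter: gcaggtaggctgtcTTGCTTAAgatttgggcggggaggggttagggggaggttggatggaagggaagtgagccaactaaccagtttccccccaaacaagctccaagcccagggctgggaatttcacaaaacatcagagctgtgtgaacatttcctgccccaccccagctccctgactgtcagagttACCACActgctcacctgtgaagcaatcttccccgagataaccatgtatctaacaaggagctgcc
A promoter was held for 9 of the 10 genes, and Mmp9 had none in the table. Within 250 bases upstream of the RefSeq start, the C/EBP letters stood in 4 of the 9 (Ltf, Ngp, Retnlg and S100a9), compared with 9.56% of 32851 promoters of the same length. The PU.1 letters stood in 5 of the 9 (Csf3r, Elane, Ltf, Mpo and S100a8), compared with 23.3% of all promoters. The RUNX letters stood in 1 of the 9 (S100a9; 14% of all promoters), and TGTTTAC, letters read by FOXA factors on either strand, in 1 of the 9 (Retnlg; 3.17% of all promoters). TATAAA, the TATA box on the sense strand, stood in 1 of the 9 (S100a8; 7.59% of all promoters). No 2 matches in these promoters shared a base, and a match describes the letters only.

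Total counts were between 20983455 and 28327765, and Alb, the hepatocytes' own albumin transcript, took 9.38% to 11% of each library. Foxa2, at chr2:148042877-148046969 on the minus strand, had 442, 246 and 516 counts in FOXA2f/f and 28, 19 and 35 in FOXA2H-KO libraries, with no overlap (16.3 ± 2.75 and 1.14 ± 0.438 CPM, counts scaled to a common library size; mean ± SD, n = 3). Its log2 fold change was -3.85 ± 0.31 (SE; adjusted p = 0.0313, quasi-likelihood test of edgeR, Benjamini-Hochberg over all genes tested), so the labels match the targeted gene. The 3 FOXA2f/f libraries were less alike than the 3 FOXA2H-KO libraries: over 14137 genes, the median ratio of the highest to the lowest CPM was 1.48 within FOXA2f/f and 1.27 within FOXA2H-KO. Without FOXA2f/f replicate 2, the median ratio between the remaining FOXA2f/f libraries was 1.23. A ratio over 2 libraries cannot exceed that over 3, so this value cannot be set against 1.48 and 1.27. The chi-square of the counts over its degrees of freedom was 104 for FOXA2f/f replicates 1 and 4. It was 118 for FOXA2f/f replicates 1 and 2, 123 for 2 and 4, and 35.9 to 61.1 for pairs of FOXA2H-KO libraries.

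Neutrophil granule transcripts were a small share of every library, and they were most abundant in FOXA2f/f replicates 1 and 4. The 10 genes together had 3168, 216 and 2677 counts in FOXA2f/f and 765, 837 and 443 in FOXA2H-KO libraries. As a share of all counts this was 124 CPM (95% Wilson interval 120 to 128), 10.3 (9.01 to 11.8) and 94.5 CPM (91.0 to 98.1) in FOXA2f/f libraries. It was 31.6 (29.4 to 33.9), 34.2 (31.9 to 36.6) and 20.3 CPM (18.5 to 22.3) in FOXA2H-KO libraries. The intervals cover counting error only. The FOXA2H-KO libraries therefore lay between FOXA2f/f replicate 2 and the other two FOXA2f/f libraries. Group means of the summed CPM gave FOXA2H-KO as 35.3% of FOXA2f/f, or 41.1% when S100a8 and S100a9, which monocytes transcribe too, were left out. Without FOXA2f/f replicate 1 these shares were 56.5% and 62.6%, and without FOXA2f/f replicate 2 they were 24.8% and 29.1%. Csf3r, a receptor gene also transcribed in some monocytes, stayed in both sums. It gave 16.6, 15.2 and 11.1 CPM of 10-gene sums of 28.1, 33.6 and 20.5 CPM in FOXA2H-KO libraries. In FOXA2f/f libraries it gave 9.32, 4.00 and 21.3 CPM of sums of 136, 11.8 and 85.1 CPM. The share without Csf3r was not computed. In bulk samples such as these, fewer neutrophils and less RNA of these genes per neutrophil cannot be told apart.

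None of the 10 genes passed the test between groups (adjusted p under 0.05 and a fold of at least 2 in edgeR's quasi-likelihood test), which called 1 of 14417 genes, Foxa2 (0.00694%). Fitted log2 fold changes of FOXA2H-KO over FOXA2f/f were below 0 for 9 of the 10 (52.2% of all genes) and above 0 for Csf3r, with a median of -2.64 compared with -0.01 over all genes tested. Unadjusted p-values were under 0.05 for 7 of the 10, all with lower means in FOXA2H-KO, compared with 3.18% of all genes in that direction and 5.17% in either. The 7 were Mpo, Elane, Ltf, Ngp, Camp, S100a8 and S100a9, and the other 3 were Mmp9, Retnlg and Csf3r. The 10 were chosen with earlier results of these data known, so the shares over all genes are no test of the list. The 7 also varied together over the same 6 libraries (correlations of 0.908 to 0.995), so they are not separate observations. Without FOXA2f/f replicate 1 the median was -1.56, and without FOXA2f/f replicate 2 it was -3.18 with all 10 genes below 0. DESeq2 called 1 of the 10 (Elane, lower in FOXA2H-KO), beside 0.313% of 15326 genes called lower. edgeR's exact test called 2 of the 10 (Ltf and Ngp, both lower), beside 0.277% of 14417 genes called lower.

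**Figure D1:**
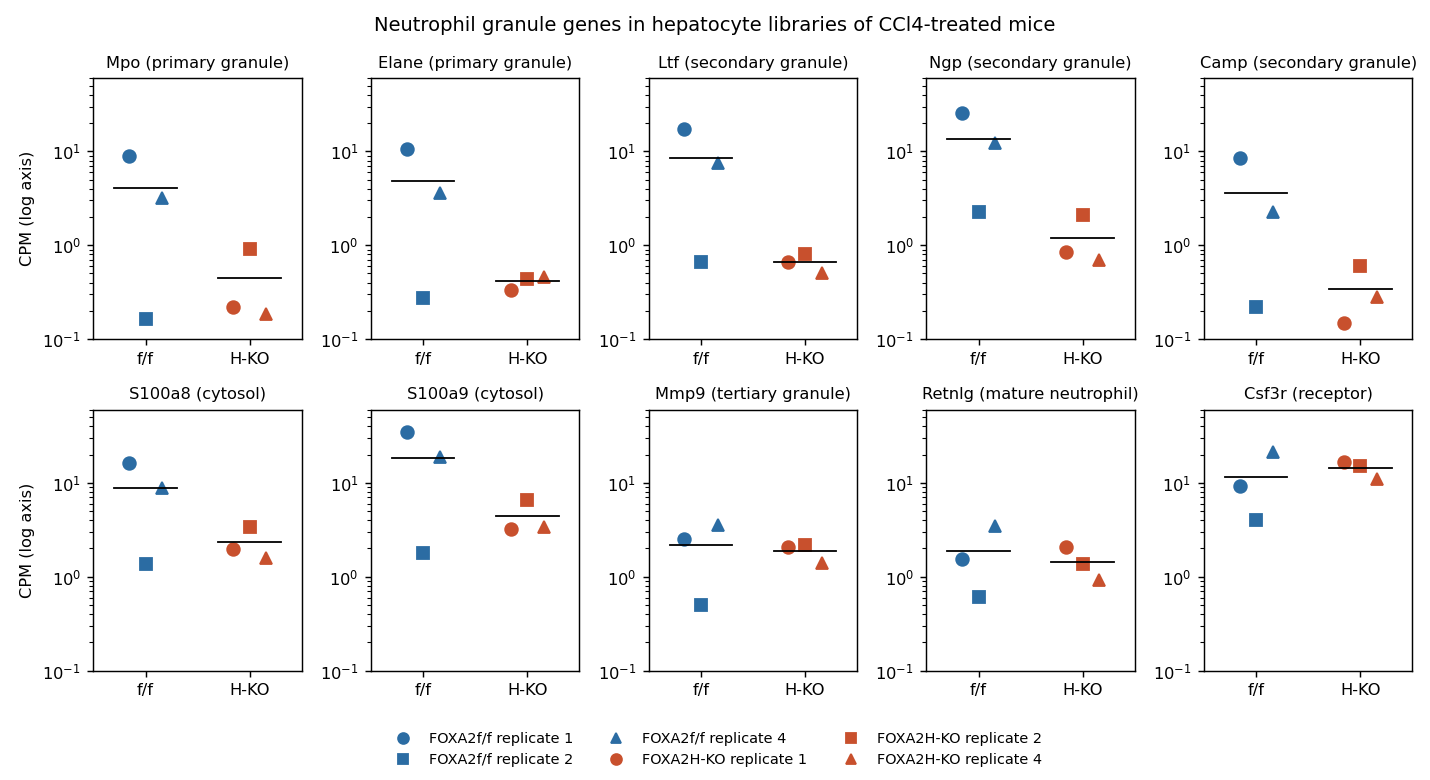
CPM of each of the 10 genes in the 6 libraries (log axis), with circles, squares and triangles for replicates 1, 2 and 4, blue for FOXA2f/f, orange for FOXA2H-KO, and a bar at each group's mean of 3 libraries. In the top row and for S100a8 and S100a9, FOXA2f/f replicates 1 and 4 sit above the FOXA2H-KO libraries and FOXA2f/f replicate 2 sits near them, whereas Csf3r in FOXA2H-KO libraries lies between 11.1 and 16.6 CPM, inside the FOXA2f/f range of 4.00 to 21.3 CPM.

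The primary granule genes were Mpo, which encodes myeloperoxidase, the enzyme that makes hypochlorous acid from hydrogen peroxide and chloride, and Elane, which encodes neutrophil elastase. Mpo was at 9.02, 0.165 and 3.18 CPM in FOXA2f/f and 0.221, 0.922 and 0.185 CPM in FOXA2H-KO libraries. FOXA2f/f replicates 1 and 4 were above all FOXA2H-KO libraries, and FOXA2f/f replicate 2 was the lowest of the 6, so the groups overlapped. Behind these values stood 210, 3 and 100 counts and 6, 23 and 4 counts, so the ratio of 54.8 between FOXA2f/f replicates 1 and 2 has an exact counting interval of 18.5 to 268. The log2 fold change of Mpo was -3.20 ± 1.16 (SE; adjusted p = 0.853, edgeR's quasi-likelihood test). Elane was at 10.7, 0.274 and 3.59 CPM in FOXA2f/f and 0.331, 0.441 and 0.463 CPM in FOXA2H-KO libraries, from 248, 5 and 113 counts and from 9, 11 and 10 counts. The order was again FOXA2f/f replicates 1 and 4 on top and FOXA2f/f replicate 2 at the bottom. The 3 FOXA2H-KO libraries were close to each other (0.411 ± 0.0705 CPM), whereas the SD of the FOXA2f/f libraries exceeded their mean (4.84 ± 5.30 CPM). The log2 fold change of Elane was -3.55 ± 1.05 (SE; adjusted p = 0.762, edgeR's quasi-likelihood test). DESeq2, with a log2 fold change of -3.56, gave Elane an adjusted p of 0.0123, in a range of 0.0123 to 1 over the alternatives.

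The secondary granule genes were likewise highest in FOXA2f/f replicates 1 and 4. Ltf, which encodes the iron-binding protein lactoferrin, was at 17.4, 0.658 and 7.53 CPM in FOXA2f/f and 0.662, 0.802 and 0.509 CPM in FOXA2H-KO libraries. FOXA2f/f replicate 2, with 12 counts, lay within the range of the FOXA2H-KO libraries, which had 18, 20 and 11 counts. The log2 fold change of Ltf was -3.68 ± 0.97 (SE; adjusted p = 0.65, edgeR's quasi-likelihood test), the lowest of the 10. Without FOXA2f/f replicate 2 it was -4.22 and passed (adjusted p = 0.0425), and with edgeR's exact test on all libraries the adjusted p was 0.0341, in a range of 0.0341 to 1 over the alternatives. Ngp, which encodes neutrophilic granule protein, a relative of the cathelicidins and cystatins, was at 25.7, 2.25 and 12.4 CPM in FOXA2f/f and 0.846, 2.09 and 0.694 CPM in FOXA2H-KO libraries. It was the only one of the 10 genes whose groups did not overlap in CPM, beside 5.96% of all genes without overlap in that direction and 10.5% in either. The gap between FOXA2f/f replicate 2 and FOXA2H-KO replicate 2 was narrow, and without the TMM factors their order changed (1.95 and 2.12 CPM). The log2 fold change of Ngp was -3.47 ± 0.84 (SE; adjusted p = 0.65, edgeR's quasi-likelihood test), and the exact two-sided permutation p was 0.1, the smallest that 3 libraries against 3 can give. edgeR's exact test gave Ngp an adjusted p of 0.0142, in a range of 0.0142 to 1 over the alternatives.

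Camp, which encodes the precursor of the antimicrobial peptide CRAMP, was at 8.42, 0.219 and 2.26 CPM in FOXA2f/f and 0.147, 0.602 and 0.278 CPM in FOXA2H-KO libraries. It overlapped between groups through FOXA2f/f replicate 2, with 4 counts there and 4, 15 and 6 counts in FOXA2H-KO libraries. The log2 fold change of Camp was -3.40 ± 1.12 (SE; adjusted p = 0.815, edgeR's quasi-likelihood test). The mean in FOXA2H-KO was 7.72% of that in FOXA2f/f for Ltf, 8.97% for Ngp and 9.42% for Camp, compared with 8.5% for Elane and 10.7% for Mpo. These 5 percentages rest on FOXA2f/f means that replicate 1 dominates: without it the log2 fold changes ranged from -2.64 (Ltf) to -1.89 (Camp), with Ngp at -2.60, Elane at -2.25 and Mpo at -1.94. Without FOXA2f/f replicate 2 they were -4.22 for Ltf, -4.10 for Elane and -3.96 for Ngp (adjusted p = 0.0425, 0.0568 and 0.0568, edgeR's quasi-likelihood test), and -3.94 for Camp and -3.75 for Mpo (adjusted p = 0.196 and 0.208).

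S100a8 and S100a9 encode the subunits of calprotectin, a calcium- and zinc-binding complex of the neutrophil cytosol that is also made by monocytes. S100a9 was at 35.0, 1.81 and 18.9 CPM in FOXA2f/f and 3.24, 6.62 and 3.42 CPM in FOXA2H-KO libraries. S100a8 was at 16.5, 1.37 and 8.84 CPM in FOXA2f/f and 1.99, 3.41 and 1.57 CPM in FOXA2H-KO libraries. For both genes FOXA2f/f replicate 2 was the lowest of the 6 libraries and FOXA2H-KO replicate 2 the highest of its group. Their differences were smaller than those of the 5 primary and secondary granule genes, with log2 fold changes of -2.07 ± 0.84 (SE; adjusted p = 0.941) for S100a9 and -1.94 ± 0.75 (adjusted p = 0.918) for S100a8 in edgeR's quasi-likelihood test. The FOXA2H-KO mean was 23.8% of the FOXA2f/f mean for S100a9 and 26.1% for S100a8. Without FOXA2f/f replicate 1 the log2 fold changes were -1.23 and -1.14, and without FOXA2f/f replicate 2 they were -2.60 and -2.44 (adjusted p = 0.103 and 0.128, edgeR's quasi-likelihood test).

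In the other 3 genes, Mmp9, Retnlg and Csf3r, replicate 1 was not the highest FOXA2f/f library. Mmp9, which encodes gelatinase B of the tertiary granules, was at 2.53, 0.494 and 3.56 CPM in FOXA2f/f and 2.096, 2.17 and 1.39 CPM in FOXA2H-KO libraries. Retnlg, which encodes resistin-like gamma and is transcribed in mature neutrophils, was at 1.55, 0.603 and 3.46 CPM in FOXA2f/f and 2.06, 1.36 and 0.925 CPM in FOXA2H-KO libraries. Csf3r, which encodes the receptor for G-CSF and is also transcribed in some monocytes, was at 9.32, 4.00 and 21.3 CPM in FOXA2f/f and 16.6, 15.2 and 11.1 CPM in FOXA2H-KO libraries. For these 3 genes FOXA2f/f replicate 4 was the highest and FOXA2f/f replicate 2 the lowest of the 6 libraries, and the FOXA2H-KO libraries all lay within the FOXA2f/f range. The log2 fold changes in edgeR's quasi-likelihood test were -0.24 ± 0.60 (SE; adjusted p = 0.992) for Mmp9, -0.39 ± 0.60 (adjusted p = 0.984) for Retnlg and 0.29 ± 0.51 (adjusted p = 0.991) for Csf3r. Their signs depended on single libraries: without FOXA2f/f replicate 4 they were 0.29, 0.42 and 1.09, and without FOXA2f/f replicate 2 they were -0.69, -0.79 and -0.11.

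**Figure D2:**
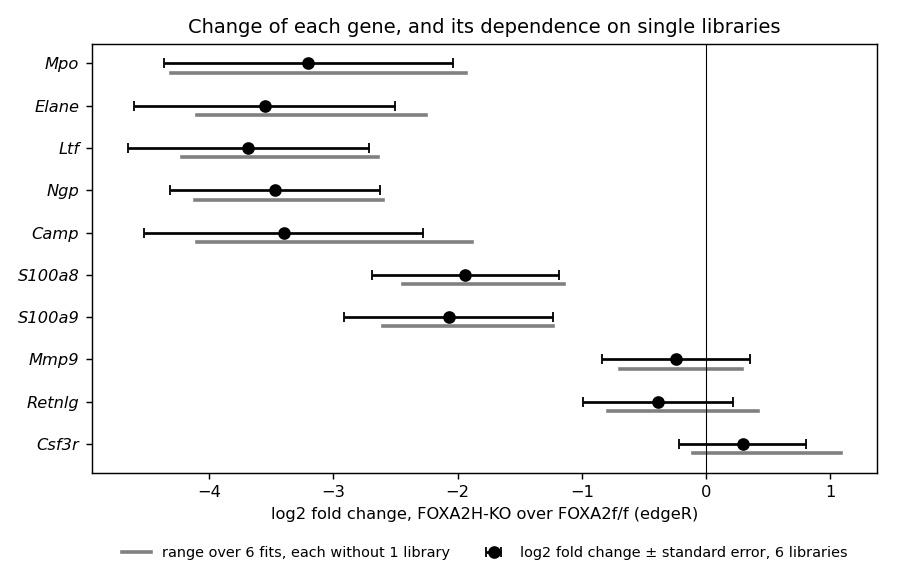
Log2 fold change of FOXA2H-KO over FOXA2f/f for each gene (points, with standard errors as thin bars, edgeR, 6 libraries) and the range over 6 fits that each leave out 1 library (grey). The ranges of Mpo, Elane, Ltf, Ngp, Camp, S100a8 and S100a9 stay below 0, from -4.31 to -1.14, and those of Mmp9, Retnlg and Csf3r span 0.

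Levels can be set against each other per transcript length, in FPKM. In FOXA2f/f libraries the order of the means was S100a9 (24.9 ± 21.1 FPKM; mean ± SD, n = 3), Ngp (10.7 ± 8.79), S100a8 (8.81 ± 7.09), Elane (5.04 ± 5.17), Camp (4.55 ± 5.04), Retnlg (3.17 ± 2.83), Csf3r (2.15 ± 1.91), Ltf (1.48 ± 1.37), Mpo (0.822 ± 0.841) and Mmp9 (0.565 ± 0.447). Each pair of neighbours in this order differed by less than the larger of its SDs. In FOXA2H-KO libraries S100a9 was again first (6.30 ± 2.56 FPKM), followed by Csf3r (2.72 ± 0.694), Retnlg (2.53 ± 1.17) and S100a8 (2.46 ± 0.984). Below them came Ngp (1.03 ± 0.625 FPKM), Mmp9 (0.502 ± 0.134), Elane (0.464 ± 0.0518), Camp (0.463 ± 0.307), Ltf (0.124 ± 0.0293) and Mpo (0.0949 ± 0.0870). Csf3r, Retnlg and Mmp9 thus stood among the primary and secondary granule genes or below them in FOXA2f/f libraries, and Csf3r and Retnlg above all 5 of them in FOXA2H-KO libraries.

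The spread within FOXA2f/f was wide, and replicate 2 was the lowest FOXA2f/f library for all 10 genes. The ratio of the highest to the lowest CPM was 54.8 for Mpo, 38.9 for Elane, 38.4 for Camp, 26.4 for Ltf, 19.3 for S100a9, 12.0 for S100a8 and 11.4 for Ngp. It was 7.21 for Mmp9, 5.74 for Retnlg and 5.33 for Csf3r, compared with a median of 1.48 over 14137 genes. Replicates 1 and 4 differed as well. Between these libraries alone, the ratio was 2.84 for Mpo, 2.97 for Elane, 3.73 for Camp and 2.29 for Csf3r. It ran from 1.4 (Mmp9) to 3.73 (Camp) over the 10 genes, compared with a median of 1.23 over 14137 genes. With all 3 libraries, 0.0212% of the 14137 genes had a wider FOXA2f/f spread than Mpo and 2.61% a wider spread than Csf3r. Within FOXA2H-KO the ratios ran from 1.40 (Elane) to 4.99 (Mpo), and the median over all genes was 1.27. The biological coefficient of variation that edgeR fitted ran from 44.4% (Csf3r) to 89.2% (Mpo) for these genes, compared with 25.3% in common over all genes.

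Pearson correlations of log2(CPM + 0.5) between Mpo, Elane, Ltf, Ngp, Camp, S100a8 and S100a9 lay between 0.908 (Ngp with S100a9) and 0.995 (Mpo with S100a8). Those between Csf3r, Retnlg and Mmp9 lay between 0.856 and 0.903. Mmp9 had correlations of 0.507 (Ngp) to 0.776 (S100a9) with the first 7 genes. Csf3r had a correlation of 0.0685 with Ngp and 0.399 with S100a9, its lowest and highest with those 7. These values describe 6 libraries in 2 groups, and within a library all genes share its depth and cell makeup, and no test was run on them. Among genes outside the lists, the 5 whose profile was most like the mean of the 10 genes were 1810013L24Rik, Lypla2, Fbxw9, Stat3 and Dnah7b, with Pearson correlations between 0.972 and 0.989 out of 12882 genes compared. Their differences were small by comparison: Stat3, the transcription factor that signals below the G-CSF and IL-6 receptors, was at 170, 114 and 152 CPM in FOXA2f/f and 109, 120 and 115 CPM in FOXA2H-KO libraries (log2 fold change -0.34; adjusted p = 0.944, edgeR's quasi-likelihood test).

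Since Csf3r was read in every library by at least 73 counts, the other genes were also set against it within each library, a scale chosen after the values were seen and given as a description with no test. Ltf stood at 186, 16.4 and 35.3 counts per 100 Csf3r counts in FOXA2f/f and 4.00, 5.29 and 4.6 in FOXA2H-KO libraries. Ngp stood at 276, 56.2 and 58.3 in FOXA2f/f and 5.11, 13.8 and 6.28 in FOXA2H-KO libraries. On this scale FOXA2f/f replicate 2 was above all FOXA2H-KO libraries for both genes. Csf3r itself was lowest in that library, with 73 counts compared with 450, 378 and 239 in FOXA2H-KO libraries. A low base raises the ratio of every gene there. Elane stood at 114, 6.85 and 16.8 compared with 2.00, 2.91 and 4.18, and Camp at 90.3, 5.48 and 10.6 compared with 0.889, 3.97 and 2.51. S100a8 stood at 177, 34.2 and 41.4 compared with 12.0, 22.5 and 14.2, and S100a9 at 376, 45.2 and 88.7 compared with 19.6, 43.7 and 31.0. In all, 7 of 9 genes did not overlap and were lower in FOXA2H-KO, compared with 2.14% of all genes on the same scale. The 2 that overlapped were Mpo (96.8, 4.11 and 14.9 compared with 1.33, 6.08 and 1.67) and Mmp9 (27.2, 12.3 and 16.7 compared with 12.7, 14.3 and 12.6). Retnlg, at 16.6, 15.1 and 16.2 in FOXA2f/f and 12.4, 8.99 and 8.37 in FOXA2H-KO libraries, was the steadiest within FOXA2f/f.

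The count of genes without overlap depended on the gene used as the base. Per Mmp9 count, 6 of 9 were lower in FOXA2H-KO without overlap (S100a8, S100a9, Ltf, Ngp, Camp and Elane), compared with 0.458% of all genes. Per Retnlg count, 2 of 9 were lower (Ltf and Ngp; 0.215% of all genes) and 1 was higher (Csf3r; 3.24% of all genes). Ltf and Ngp were without overlap on all 3 scales. These scales are not independent, because all 3 bases were lowest in FOXA2f/f replicate 2. Mmp9 had 9 counts and Retnlg 11 counts there, so ratios in that library carry wide counting error and a low base. Csf3r is also transcribed outside neutrophils, and the part of monocytes and macrophages in these ratios was not tested.

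**Figure D3:**
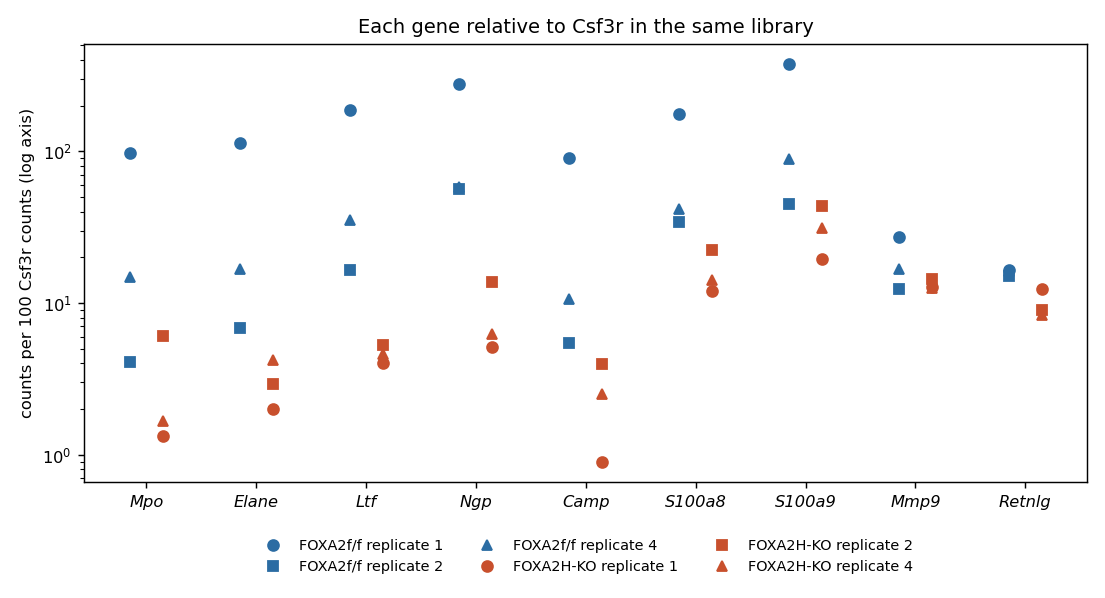
Counts of 9 genes per 100 Csf3r counts of the same library (log axis), with blue for FOXA2f/f, orange for FOXA2H-KO, and circles, squares and triangles for replicates 1, 2 and 4. For Ltf the FOXA2f/f libraries lie between 16.4 and 186 and the FOXA2H-KO libraries between 4.00 and 5.29, whereas for Mpo and Mmp9 the groups overlap.

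The wider neutrophil lists were read in the same fit, and 0 of their genes passed in edgeR's quasi-likelihood test. Of 9 further primary granule genes 5 were tested, 4 with a log2 fold change below 0 and 1 above, with a median of -0.90 and 1 at an unadjusted p under 0.05. The closest relative of Elane, Prtn3, which encodes proteinase 3, had 433, 15 and 222 counts in FOXA2f/f and 31, 90 and 62 in FOXA2H-KO libraries, with a log2 fold change of -1.81 ± 0.90 (SE; adjusted p = 0.944). FOXA2f/f replicate 2 was again the lowest library. Of Prtn3's exonic bases, 9.18% are shared with Plppr3 on the opposite strand. Gstm1 and Ctsc, the most abundant genes of this list, are also made by hepatocytes and other cells, and their log2 fold changes were -0.16 ± 0.20 and 0.08 ± 0.25 (adjusted p = 0.983 and 0.993).

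Several genes of the wider neutrophil lists were too low to be tested. Some are named here after their values were seen, because FOXA2f/f replicates 1 and 4 stood highest in them too. Ctsg, which encodes cathepsin G, had 85, 2 and 30 counts in FOXA2f/f and 2, 4 and 0 in FOXA2H-KO libraries. Ms4a3, a surface gene of granulocyte-monocyte progenitors, had 53, 0 and 26 counts compared with 0, 2 and 1. Fcnb, which encodes ficolin B of the granules, had 58, 2 and 25 counts compared with 0, 4 and 1. In all 3, FOXA2f/f replicates 1 and 4 were above every other library and FOXA2f/f replicate 2 was within the FOXA2H-KO range. Cd177, a surface glycoprotein stored in secondary granules, had 89, 1 and 64 counts compared with 5, 6 and 5. Gfi1, a repressor needed for granulocyte maturation, had 28, 0 and 8 counts compared with 2, 0 and 1. Not all genes too low to be tested had this order. Ltb4r1 had 18, 6 and 11 counts compared with 13, 9 and 4, and Olfm4 had 1, 0 and 5 compared with 0, 3 and 0. Their FOXA2H-KO means were still lower, at 70.5% (Ltb4r1) and 59.6% (Olfm4, 9 counts in all) of FOXA2f/f means. Both were likewise named after their values were seen. DESeq2, which kept more low genes, called Ctsg alone among the wider lists (log2 fold change -4.31; adjusted p = 0.0465).

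The list of other secondary and tertiary granule genes was level, with 9 of 18 tested genes above 0, 9 below, a median of 0.01 and 0 at an unadjusted p under 0.05. Its most abundant genes, Hp, Arg1 and Lcn2, are also made by hepatocytes. Lcn2, which encodes lipocalin 2, was at 414 ± 310 CPM in FOXA2f/f and 442 ± 201 CPM in FOXA2H-KO libraries (log2 fold change 0.10; adjusted p = 0.997). Mmp8, the neutrophil collagenase, had 67, 14 and 100 counts in FOXA2f/f and 87, 47 and 53 in FOXA2H-KO libraries (log2 fold change 0.13; adjusted p = 0.993), and FOXA2f/f replicate 2 was the lowest library. The mature neutrophil list of surface and cytosolic genes had 12 of 15 tested genes above 0, a median of 0.38 and 0 at an unadjusted p under 0.05. Its other 12 genes were too low to be tested, and 3 of them had no counts. In those with counts, FOXA2H-KO means were below FOXA2f/f means except for BC100530 (187%, from 3 counts in all 6 libraries). The others ran from 0% (Mrgpra2a, 5 counts in all) to 86.8% (Il1r2) of FOXA2f/f means. The macrophage list leaned the same way as the tested genes, with 13 of 16 above 0 and a median of 0.32. The part of macrophages in this list was not tested. Cxcr2, the chemokine receptor by which neutrophils leave the marrow, had 29, 8 and 81 counts compared with 48, 51 and 31. Ly6g, a surface marker of mouse neutrophils, had 10, 0 and 7 counts compared with 1, 0 and 1, and was too low to be tested. Mmp8, Mrgpra2a, BC100530, Il1r2, Cxcr2 and Ly6g were named after their values were seen.

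Genes that make, call or answer to neutrophils also gave 0 calls. Of 8 tested transcription factors of granulopoiesis, 6 were above 0, with a median of 0.28 and 0 at an unadjusted p under 0.05, and Cebpa, which hepatocytes express too, was at 200 ± 52.0 and 200 ± 4.59 CPM. Of 10 tested ligands and adhesion genes, 6 were above 0, with a median of 0.10. An unadjusted p was under 0.05 for 2 of the 10 (5.17% of all genes), Cxcl1 and Cxcl2, whose log2 fold changes had opposite signs. Cxcl12 and Vcam1, the most abundant of the list, were at 234 ± 93.5 and 104 ± 77.7 CPM in FOXA2f/f and 299.7 ± 17.4 and 180 ± 1.67 CPM in FOXA2H-KO libraries (log2 fold changes 0.35 and 0.79; adjusted p = 0.983 and 0.967). Cxcl1, a chemokine that attracts neutrophils through Cxcr2, was at 121, 29.6 and 74.8 CPM in FOXA2f/f and 32.5, 26.8 and 25.9 CPM in FOXA2H-KO libraries. FOXA2f/f replicates 1 and 4 of Cxcl1 were above all others, and replicate 2 lay within the FOXA2H-KO range (log2 fold change -1.40 ± 0.44, SE; adjusted p = 0.791). Cxcl2, another ligand of Cxcr2 and named after its values were seen, was at 0.430, 0.274 and 0.763 CPM in FOXA2f/f and 1.07, 1.08 and 1.11 CPM in FOXA2H-KO libraries, without overlap (log2 fold change 1.10 ± 0.43, SE; adjusted p = 0.918). Of 11 tested S100 genes and calprotectin receptors, 7 were above 0, with a median of 0.13 and 1 at an unadjusted p under 0.05. Bsg, which encodes basigin, a receptor that binds S100a9, was at 332, 384 and 315 CPM in FOXA2f/f and 217, 270 and 225 CPM in FOXA2H-KO libraries, without overlap (log2 fold change -0.54 ± 0.16, SE; adjusted p = 0.771).

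Markers of other cells varied between the libraries as well. The summed CPM of 16 macrophage genes was 1779, 814.7 and 3046 in FOXA2f/f and 2746, 2268 and 2084 in FOXA2H-KO libraries, with 13 of 16 genes above 0 and a median log2 fold change of 0.32. The sums of 12 endothelial genes (500.5, 305.1 and 1015 compared with 578.4, 632.1 and 659.3), 12 stellate cell and fibroblast genes (1315, 1087 and 2795 compared with 2667, 1625 and 1718) and 12 lymphocyte genes (5.97, 1.70 and 9.44 compared with 8.57, 8.22 and 5.27) had FOXA2f/f replicate 2 lowest too. All 4 sums were highest in FOXA2f/f replicate 4, whereas the 10 neutrophil granule genes summed to 136 CPM in FOXA2f/f replicate 1 and 85.1 CPM in FOXA2f/f replicate 4. Csf3r, Retnlg and Mmp9 shared with these sums the highest and the lowest library. The sum of 12 hepatocyte genes was highest in FOXA2f/f replicate 2 (157300 CPM) and lowest in FOXA2H-KO replicate 1 (109500 CPM). Sums for erythroid cells and platelets ran from 57.3 to 89.9 CPM in FOXA2f/f and from 37.9 to 47.9 CPM in FOXA2H-KO libraries, without overlap, and Alas2, the heme synthesis enzyme of red cell precursors, made up most of them (53.6 ± 24.8 and 23.7 ± 3.77 CPM; log2 fold change -1.17, adjusted p = 0.65). Over the whole list, with Alas2 included, 4 of 8 tested genes were above 0 with a median of -0.02. The globins Hba-a1, Hbb-bs, Hbb-bt and Hba-a2, named after their values were seen, ran from -0.04 to 0.47. Sums for 8 cholangiocyte genes (189 to 383.6 and 264.3 to 722.1 CPM) and for 11 eosinophil, basophil and mast cell genes (9.32 to 38.1 and 19.7 to 22.1 CPM) overlapped. The part of these differences in cell makeup in the neutrophil granule results was not tested.

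**Figure D4:**
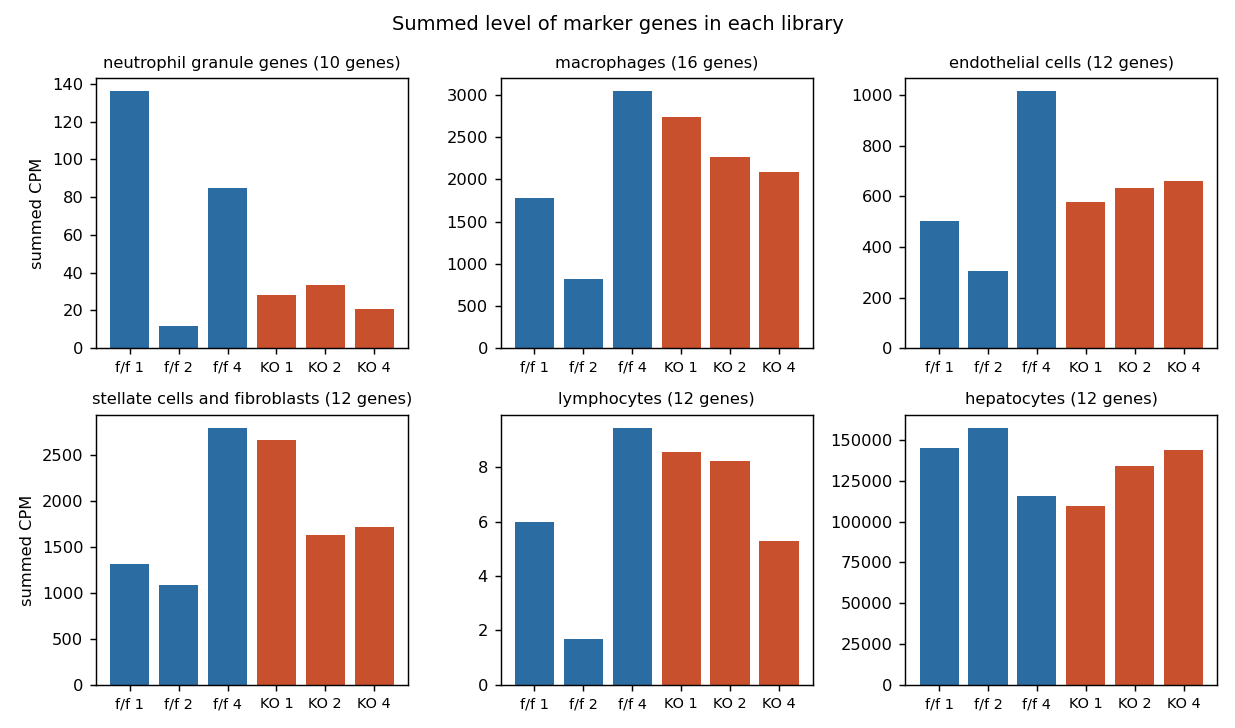
Summed CPM of the 10 neutrophil granule genes and of 5 marker lists in each library, with blue bars for FOXA2f/f and orange bars for FOXA2H-KO replicates 1, 2 and 4, and vertical axes from 0 on a scale of their own. The neutrophil granule sum is highest in FOXA2f/f replicate 1 (136 CPM), the macrophage sum in FOXA2f/f replicate 4 (3046 CPM), and both are lowest in FOXA2f/f replicate 2.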

How the data were processed

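RNA-seq was performed on 6 libraries of poly-A RNA (TruSeq, paired-end). For each library the authors deposited whole-number counts for 34745 genes without normalization, and FPKM values, which divide the same counts by gene length and library total. The submitters' processing notes name CASAVA 1.8, TopHat2 2.1.0, HTSeq, edgeR and the build mm10. The annotation is not given in the sources used here. Columns of the series-wide table repeated these values and were not used.

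The fit used edgeR 4.0.16 in R 4.3.3 (filterByExpr, TMM, quasi-likelihood test, no replicate block, all 6 libraries, Benjamini-Hochberg over 14417 genes). CPM values carry the TMM factors, and shares of all counts use the library total. The SE of a log2 fold change was derived from the test. It is the absolute log2 fold change divided by the square root of the quasi-likelihood F statistic. Genes were called at an adjusted p under 0.05 and a fold of at least 2. For a single value, the exact permutation test was two-sided. DESeq2 1.42.0 and limma 3.58.1 served as alternatives, as did other scalings and filters, log2(FPKM + 1) and log2(FPKM + 0.1), the replicate number as a block, and leaving out each library. The scripts were tested on simulated data.

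Total counts of 20983455 to 28327765 leave wide counting error on genes with a few counts. Replicates were not near-identical (chi-square of their counts 35.9 to 123 times its degrees of freedom). The 10 genes and the wider lists were chosen with earlier results of these data known. The genes named are the 10, Foxa2, up to 3 of the most abundant genes of each list, genes called, and the 5 most like the mean profile of the 10 (log2(CPM + 0.5), mean of at least 1 CPM). Further genes are marked in the text as picked from their values. The lists were written by hand.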

Additional observations from a re-analysis of the deposited data

How the results depend on the processing

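The 7 genes Mpo, Elane, Ltf, Ngp, Camp, S100a8 and S100a9 stayed below 0 in every alternative that could be fitted, and Csf3r, Mmp9 and Retnlg changed sign in some. Retnlg ran from -0.79 to 0.42, Csf3r from -0.11 to 1.09 and Mmp9 from -0.69 to 0.29 without 1 library. Retnlg was 0.001 on log2(FPKM + 0.1) and 0.42 without FOXA2f/f replicate 4, Mmp9 was 0.13, 0.018 and 0.29 on log2(FPKM + 0.1), with the replicate block and without FOXA2f/f replicate 4, and Csf3r was -0.11 without FOXA2f/f replicate 2. The median log2 fold change of the 10 genes (-2.64) was -1.05 on log2(FPKM + 1), a scale that compresses low values, and ran from -3.18 to -1.56 when each library was left out. Of the 10 genes, DESeq2 called 1, edgeR's exact test 2, and fits without 1 library 0 to 1 (Ltf, without FOXA2f/f replicate 2). In the wider neutrophil lists DESeq2 called 1 gene.

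Over all genes, where the main test called 1, the number called was 75 with DESeq2, 64 with edgeR's exact test, 2 without a filter beyond 1 count, 4 with limma-voom and library quality weights (added after seeing the data), 0 with library size alone, 0 on either FPKM scale, 0 with the replicate block, and 0 to 6 without 1 library. Foxa2 missed the threshold with library size alone (-3.74; adjusted p = 0.124), on log2(FPKM + 1) (-1.95) and log2(FPKM + 0.1) (-3.38), and with the replicate block (-3.88; adjusted p = 0.0536), and in 5 of the 6 fits without 1 library (-4.17 to -3.63 over the 6; adjusted p from 0.034, without FOXA2f/f replicate 2, to 0.499). The causes were not tested. Same-numbered libraries did not deviate together (correlations -0.0906, 0.0527 and -0.242), so the numbers were not taken as pairs, and 0 of the 10 genes were called with the block. Library size alone and log2(FPKM + 0.1) moved the median of all genes to 0.104 and 0.114. Of the 10 genes, the number without overlap between groups was 1 in CPM, 0 with library size alone, and 7, 6 and 3 per Csf3r, Mmp9 and Retnlg count (added after seeing the data). The summed CPM of FOXA2H-KO as a share of FOXA2f/f (35.3%) ran from 24.8% to 56.5% without 1 library (added after seeing the data). A filter of at least 10 counts in every library left 6 of the 10.

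The spread within FOXA2f/f was 5.33 to 54.8 times for the 10 genes, and 1.4 to 3.73 times without replicate 2. Values under about 10 counts carry wide counting error. The series as used here holds no whole liver, blood or marrow and no mice without CCl4, so the neutrophils' number, stage and place in the liver were not measured.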
